A study of Homo sapiens with 12 samples.

Results

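The mitochondrial genome codes for 37 of the 60603 genes in the count table, taken here as every gene whose symbol begins with MT-. They are 13 protein genes, 2 ribosomal RNA (rRNA) genes and 22 transfer RNA (tRNA) genes, all on chromosome M of hg38. The protein genes are 7 subunits of respiratory complex I, 1 of complex III, 3 of complex IV and 2 of complex V. On the plus strand lie 28 genes and on the minus strand 9, which are MT-ND6 and 8 tRNA genes. Of the 37 genes, 36 had enough counts to be tested, and MT-TQ did not.

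The libraries came from T24, an established human bladder carcinoma cell line. Cells carried the genotype label WT or NS1, and each was left untreated or given 5-Ad-IAA, a synthetic analogue of the plant hormone auxin. The 4 groups, WT untreated, WT with 5-Ad-IAA, NS1 untreated and NS1 with 5-Ad-IAA, held 3 replicates each. 5-Ad-IAA is the inducer of AlissAID, a system that directs untagged proteins to degradation, and the comparisons ask what the inducer, the NS1 genotype and both together do to the transcriptome. The labels do not spell out NS1. Neither the dose and duration of the inducer, what the WT cells carry nor whether the NS1 line is 1 clone was used here.

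Mitochondrial DNA is transcribed from both strands as long precursor RNAs. In these precursors tRNAs lie between most of the other genes, and cutting out the tRNAs frees the messenger RNAs and rRNAs. Most of the messenger RNAs then receive short poly(A) tails, which in several of them also complete the stop codon. The protein products are core subunits of the respiratory chain and ATP synthase, whose other subunits are encoded in the nucleus.

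The printed sequences come from the GENCODE transcripts on GRCh38 and are written in the sense of each gene. The 4 tRNA genes MT-TA, MT-TN, MT-TC and MT-TY are shown because they held most of the tRNA-gene counts and were the members with log2 fold changes above 0 in untreated NS1 against WT. They carry alanine, asparagine, cysteine and tyrosine and lie side by side on the minus strand between MT-TW and MT-CO1. Capitals mark the anticodon.
MT-TA (chrM:5587-5655): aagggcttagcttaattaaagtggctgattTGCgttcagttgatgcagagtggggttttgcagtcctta
MT-TN (chrM:5657-5729): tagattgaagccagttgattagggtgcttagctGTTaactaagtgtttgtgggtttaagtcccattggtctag
MT-TC (chrM:5761-5826): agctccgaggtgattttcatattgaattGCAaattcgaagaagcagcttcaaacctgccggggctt
MT-TY (chrM:5826-5891): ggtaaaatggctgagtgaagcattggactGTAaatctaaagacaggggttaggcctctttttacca
MT-TC and MT-TY share 1 base, the last of MT-TY and the first of MT-TC.

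The ends of the reading frames are shown for genes whose share of the protein-gene counts differed between the lines. Capitals mark the bases present of the final codon. MT-CO2, MT-ATP6, MT-CO3 and MT-CYB held a lower share in NS1, and MT-ND1 and MT-ND4 a higher one.
MT-CO2 (chrM:8246-8269): atagggcccgtatttaccctaTAG
MT-ATP6 (chrM:9184-9207): ctctacctgcacgacaacacaTAA
MT-CO3 (chrM:9967-9990): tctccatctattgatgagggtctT
MT-CYB (chrM:15864-15887): aaaacaaaatactcaaatgggccT
MT-ND1 (chrM:4239-4262): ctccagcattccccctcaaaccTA
MT-ND4 (chrM:12114-12137): acatcattaccgggttttcctctT
Of the 13 protein genes, 7 carried a whole final codon in the DNA and 6 (MT-ND1, MT-ND2, MT-CO3, MT-ND3, MT-ND4 and MT-CYB) only its first 1 or 2 bases. Both kinds occurred among the genes with a lower share, so this feature did not separate them.

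MT-ATP8 and MT-ATP6, the complex V genes, overlap by 46 bases, shown in capitals within chrM:8503-8596. Their counts are therefore not independent of each other.
MT-ATP8/MT-ATP6: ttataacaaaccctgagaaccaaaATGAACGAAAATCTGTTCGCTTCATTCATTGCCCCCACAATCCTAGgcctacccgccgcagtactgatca
MT-ND4L and MT-ND4 overlap by 7 bases, MT-ATP6 and MT-CO3 by 1, and MT-TI and MT-TQ, on opposite strands, by 3. The counting strand was not given in the sources used here, so reads of the 9 minus-strand genes cannot be told apart from plus-strand precursor RNA crossing them.

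Libraries held 10593934 to 20266996 counts, and the replicate 1 libraries were the deepest in each group, at 15627546 to 20266996. RNA was selected by its poly(A) tail before library preparation. KRT7 and KRT8, keratins of simple epithelia, reached 1534 to 6019.9 and 1156 to 3074 CPM (counts scaled to the size of each library by TMM), whereas the epithelial adhesion genes EPCAM and CDH1 reached at most 4.50 and 0.0967. Of the urothelial markers, UPK3A was at 0 in all libraries, and the transcription factor genes GATA3 and PPARG stood at 22.2 to 105 and 39.5 to 106 CPM. The leukocyte markers PTPRC, CD3E and CD68 summed to 13.6 to 23.6 CPM in untreated WT and 7.78 to 15.5 in untreated NS1, and nearly all of it was CD68. Of the epithelial and mesenchymal markers, untreated NS1 had KRT19 (0.78) and CDH2 (0.58) higher and EPCAM (-1.76) and VIM (-1.20) lower, given as log2 fold changes (adjusted p = 0.031, 0.0068, 0.015 and 0.0016, edgeR). With the inducer in both lines, KRT7, KRT19, GATA3, PPARG and CDH2 were higher in NS1 and VIM lower, and with the inducer in NS1, GATA3 (1.34) and the endothelial marker PECAM1 (3.19) were higher (adjusted p = 0.028 and 0.025, edgeR). PECAM1 averaged only 0.206 CPM in untreated NS1, 1.93 in treated NS1 and 1.07 in untreated WT. It was the 1 of 3 endothelial markers with enough counts to be tested. The part of these markers in the results was not tested. The labels do not state that replicates were separate cultures, so p-values measure the spread between these samples. In bulk RNA, a change in cell make-up and a change in RNA per cell cannot be told apart.

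All 37 genes together held a mean 2.14% ± 0.776 (SD, n = 3) of the counts in untreated WT and 2.13% ± 0.657 in WT with 5-Ad-IAA. In NS1 they held 1.04% ± 0.268 untreated and 1.25% ± 0.219 with the inducer. The 13 protein genes took most of this. In untreated WT they held 1.01%, 2.26% and 1.82% of counts in replicates 1, 2 and 3. In WT with 5-Ad-IAA they held 1.22%, 1.56% and 2.25%. In untreated NS1 the values were 0.728%, 0.656% and 1.10%, and in NS1 with 5-Ad-IAA 1.09%, 0.845% and 0.862%. The lowest WT values were those of replicate 1. The untreated one lay below the highest NS1 values of both conditions, and the treated one above all NS1 libraries. The rRNA genes held 0.391% ± 0.159 in untreated WT, 0.399% ± 0.137 in treated WT, 0.167% ± 0.0419 in untreated NS1 and 0.252% ± 0.0671 in treated NS1. The tRNA genes held 0.0492%, 0.0602%, 0.0453% and 0.0677% on average in the same order, a share that did not follow that of the other classes.

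Without the inducer, NS1 had lower levels than WT of both rRNAs, the complex IV genes MT-CO2 and MT-CO3, both complex V genes, MT-CYB of complex III, MT-ND3 of complex I, and the tRNA genes MT-TG and MT-TR. These 10 genes passed an adjusted p under 0.05 in edgeR's quasi-likelihood test with Benjamini-Hochberg adjustment, all of them lower, which is 27.8% of the 36 tested. Among all 17775 genes tested, 12.5% passed, 7.05% lower. Of the 36 genes, 32 had a log2 fold change below 0, and the median was -0.84, against 0.00 over all genes. Groups did not overlap for 7 of the 36 members, all lower in NS1, which is 19.4%. Among all genes, 16.2% were lower without overlap, a share that leaves out genes higher without overlap. At an unadjusted p under 0.05 there were 22, all lower, where 27.8% of all genes passed that level.

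MT-CO3, a subunit of cytochrome c oxidase (complex IV), reached 829, 1439 and 1399.6 normalised CPM in untreated WT replicates 1, 2 and 3. In untreated NS1 it reached 383, 359.8 and 622. Every untreated NS1 library lay below every untreated WT library. The log2 fold change was -1.43 ± 0.25 (SE, adjusted p = 0.0031, edgeR), 2.69-fold lower. Taken within replicate numbers, the log2 ratios were -1.11, -2.00 and -1.17.

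MT-CO2, which carries a copper centre of the same complex, stood at 754, 1803 and 1843 CPM in untreated WT and 521, 457 and 815 in untreated NS1. The groups overlapped through the third NS1 library and the first WT library. Its log2 fold change was -1.30 ± 0.34 (adjusted p = 0.024, edgeR). MT-CO1, the catalytic subunit and the most abundant protein gene, stood at 3085, 7123 and 6048 CPM in untreated WT and 2419, 2249.8 and 3913 in untreated NS1. It missed the threshold at -0.92 ± 0.31 (adjusted p = 0.066, edgeR).

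MT-ATP6, part of the proton channel of ATP synthase (complex V), had 865, 1817 and 1552 CPM in untreated WT. It had 443, 414 and 729.6 CPM in untreated NS1, all below WT. The log2 fold change was -1.42 ± 0.29 (adjusted p = 0.0074, edgeR). The overlapping MT-ATP8, a small membrane subunit, had 295, 668 and 534 CPM in untreated WT and 149, 150.0 and 256 in untreated NS1. It differed by -1.43 ± 0.30 (adjusted p = 0.0083, edgeR).

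MT-CYB encodes cytochrome b, the only complex III subunit of this genome. It stood at 570.0, 1299 and 1058 CPM in untreated WT and at 314, 311 and 529 in untreated NS1, with no overlap. The log2 fold change was -1.34 ± 0.31 (adjusted p = 0.013, edgeR).

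Complex I oxidises NADH, and its 7 genes had log2 fold changes of -0.86 to -0.58, nearer to 0 than those of complexes III and V, a difference described and not tested. MT-ND3 passed, at -0.79 ± 0.18 (adjusted p = 0.013, edgeR), with 221, 254 and 331 CPM in untreated WT and 153, 131 and 183 in untreated NS1. MT-ND1 had 258, 649 and 516 CPM in untreated WT and 315, 232 and 407 in untreated NS1, so the groups overlapped. Its log2 fold change was -0.58 ± 0.33 (adjusted p = 0.28, edgeR). MT-ND6, the protein gene on the minus strand, was at -0.85 ± 0.42 (adjusted p = 0.21, edgeR).

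The 16S rRNA gene MT-RNR2, of the large mitochondrial ribosomal subunit, had 1849, 3809 and 4793 CPM in untreated WT and 1733, 1075 and 1744 in untreated NS1. The lowest WT library stood just above the highest NS1 library. The log2 fold change was -1.20 ± 0.34 (adjusted p = 0.037, edgeR). MT-RNR1, the 12S rRNA of the small subunit, fell by 1.34 ± 0.37 on the log2 scale (adjusted p = 0.032, edgeR), from 172, 469.7 and 525 CPM to 152, 122 and 186, with overlap.

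Among the tRNA genes, MT-TG (glycine), which lies between MT-CO3 and MT-ND3, had 16.2, 30.0 and 20.7 CPM in untreated WT and 9.57, 8.14 and 10.2 in untreated NS1. It differed by -1.26 ± 0.21 (adjusted p = 0.0024, edgeR). MT-TR (arginine) passed at -1.49 ± 0.43 (adjusted p = 0.039, edgeR), from levels of 1.26 to 4.80 CPM in untreated WT and 0.581 to 1.42 in untreated NS1 that overlapped. MT-TA, MT-TN, MT-TC and MT-TY were the 4 members with a log2 fold change above 0, at 0.15 ± 0.23, 0.14 ± 0.22, 0.18 ± 0.20 and 0.14 ± 0.21. None passed, and all 4 were below 0 without the replicate 1 libraries.

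**Figure D1:**
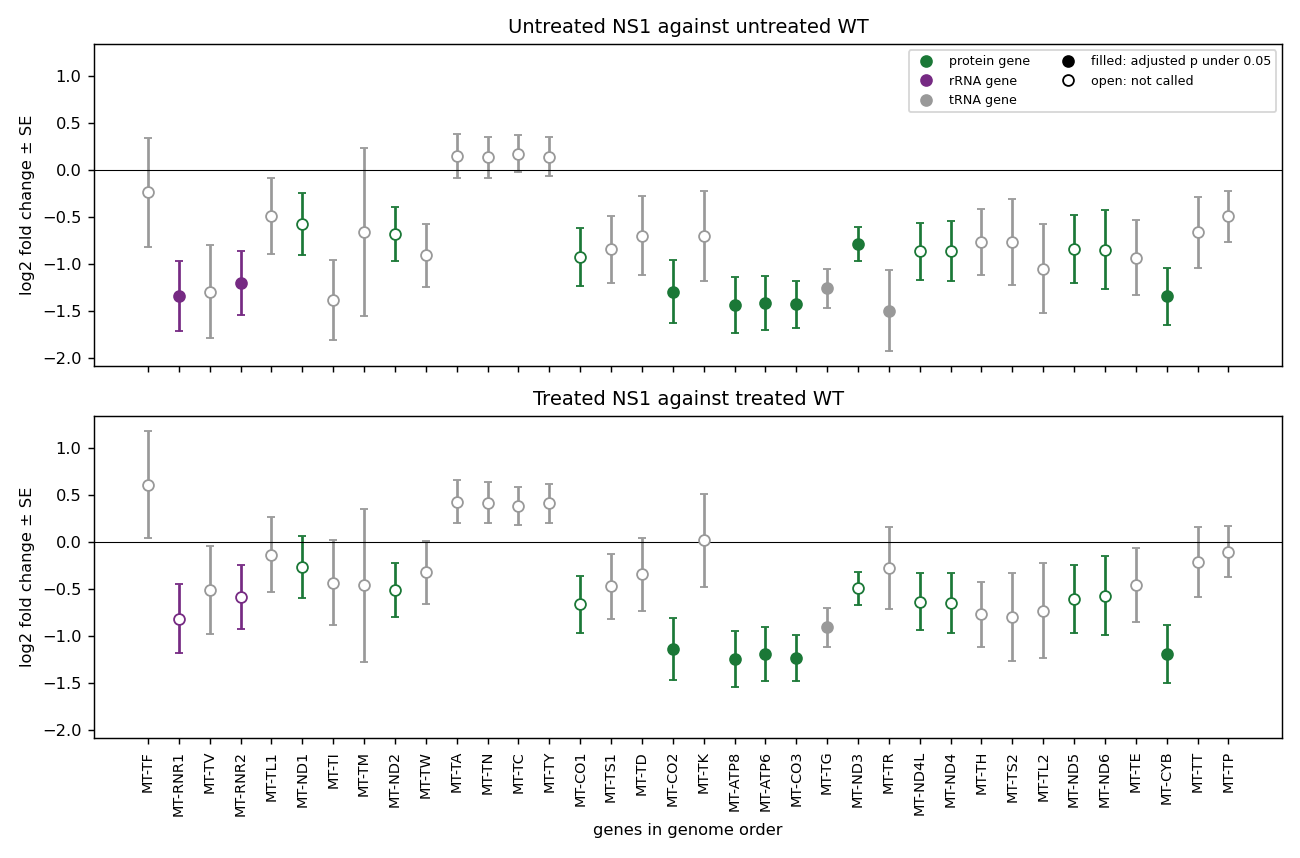
Log2 fold change of NS1 against WT with its standard error (y axis) for the 36 genes tested, in genome order (x axis), untreated above and with 5-Ad-IAA below. Filled points passed an adjusted p under 0.05 (10 above, 6 below). The lowest protein genes run from MT-CO2 to MT-CO3 and again at MT-CYB, and MT-TA, MT-TN, MT-TC and MT-TY stand above 0.

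With the inducer in both lines, 6 of the 36 genes were lower in NS1 and none higher. They were MT-CO2, MT-ATP8, MT-ATP6, MT-CO3, MT-TG and MT-CYB, all 6 of them among the 10 of the untreated comparison. That comparison shares no library with this one, but both came from the same fit over 12 libraries. Same-numbered treated and untreated libraries also deviated together, so the comparisons are not independent. These 6 are 16.7% of the members, whereas 28.2% of all genes passed in this comparison, 14.5% lower, so the share of members called was below that of all genes. At an unadjusted p under 0.05 there were 10 of the 36, all lower, where 39.7% of all genes passed that level, so the members' share was below it. The median log2 fold change was -0.50, against 0.00 over all genes. Groups did not overlap for 9 of the 36, all lower, which is 25.0%. Among all genes, 22.2% were lower without overlap, again leaving out genes higher without overlap.

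MT-CO3 reached 1029, 1057 and 1479 CPM in treated WT and 588, 438 and 494 in treated NS1, a log2 fold change of -1.23 ± 0.25 (adjusted p = 0.0027, edgeR). MT-ATP6 reached 1024, 1233 and 1803 CPM against 686, 525 and 568, and MT-ATP8 360.4, 442 and 653 against 185 to 229.6. Their log2 fold changes were -1.19 ± 0.29 and -1.24 ± 0.30 (adjusted p = 0.0078 and 0.0073, edgeR). MT-CYB was at 666, 909.8 and 1328 CPM against 475, 395 and 406, with a log2 fold change of -1.19 ± 0.30 (adjusted p = 0.011, edgeR). MT-CO2 differed by -1.13 ± 0.33 and MT-TG by -0.90 ± 0.21 (adjusted p = 0.022 and 0.0057, edgeR). In all 6 genes no treated NS1 library reached the level of a treated WT library. MT-TA, MT-TN, MT-TC and MT-TY were above 0 in treated NS1 against treated WT as well, at 0.43 ± 0.23, 0.42 ± 0.22, 0.39 ± 0.20 and 0.41 ± 0.20, and did not pass (adjusted p = 0.18, 0.16, 0.17 and 0.15, edgeR). All 4 were called higher with no low-count filter, among 22 members and 16.1% of all genes. MT-TA and MT-TN were called higher without treated NS1 replicate 2 (adjusted p = 0.042 and 0.036, edgeR), among 7 members and 20.9% of all genes. The rRNA genes MT-RNR1 and MT-RNR2 did not pass here, at -0.81 ± 0.37 and -0.58 ± 0.34 (adjusted p = 0.11 and 0.22, edgeR).

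The number of calls depended on single replicates. In both WT groups the mitochondrial level of replicate 1 was the lowest. Without the replicate 1 libraries, 28 members were called untreated and 20 with the inducer, including all 10 and all 6 of those above, where 19.6% and 34.0% of all genes passed. Without replicate 2 the members called were 0 and 2 (MT-CO3 and MT-TG), where 1.13% and 9.03% of all genes passed. Without replicate 3 they were 1 and 1 (MT-CO3 in both), where 1.00% and 11.7% passed. Untreated, the count was 20 without WT replicate 1, 5 without WT replicate 2 and 6 without WT replicate 3, where 9.82%, 9.81% and 8.78% of all genes passed. It was 6, 4 and 8 without NS1 replicates 1, 2 and 3, where 8.02%, 6.63% and 6.96% passed. Leaving out 1 library at a time from the groups compared, MT-ATP8, MT-ATP6, MT-CO3 and MT-TG kept an adjusted p under 0.05 in 6 of 6 fits in both comparisons. MT-CYB kept it in 3 of 6 untreated and 5 of 6 treated, MT-CO2 in 2 of 6 and 3 of 6, and MT-ND3 in 4 of 6 untreated. MT-TR kept it in 2 of 6, and MT-RNR1 and MT-RNR2 in 1 of 6.

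A share within the 13 protein genes does not depend on the library scaling or on the total mitochondrial level. Relative to the mean, the SD between replicates was smaller for the share than for the level in 48 of 52 combinations of gene and group. The 4 exceptions were MT-ND3 in both WT groups and MT-ND5 and MT-ND6 in treated NS1. MT-CO2, MT-ATP8, MT-ATP6, MT-CO3 and MT-CYB held a lower share in all 6 NS1 libraries than in any of the 6 WT libraries. MT-ND1, MT-CO1 and MT-ND4 held a higher share in all 6. The other 5 genes, all of complex I, overlapped. Such shares show unequal change among the genes, and they sum to a constant.

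MT-CYB took 5.93%, 5.91% and 5.68% of the protein-gene counts in untreated WT and 5.69%, 5.91% and 5.85% in treated WT. It took 4.48%, 4.73% and 4.68% in untreated NS1 and 4.31%, 4.49% and 4.40% in treated NS1. Replicate 1 did not stand apart for MT-CYB, but it did for some other genes. MT-CO3 took 8.62% and 8.79% in untreated and treated WT replicate 1, against 6.52% to 7.51% in the other WT libraries. MT-ND1 took 4.48% and 4.51% in NS1 replicate 1, against 3.52% to 3.61% in the other NS1 libraries. MT-ND6 was lowest in replicate 1 of all 4 groups, for example 2.43% against 3.42% and 3.54% in treated WT. The complex V genes together took 10.8% to 12.1% in the 6 WT libraries and 8.06% to 8.72% in the 6 NS1 libraries. The 7 complex I genes took 32.8% to 35.7% in WT and 39.3% to 40.7% in NS1. MT-CO1 took 31.9% to 32.7% in WT and 34.2% to 35.4% in NS1, whereas its complex IV partner MT-CO3 took 6.52% to 8.79% and 4.98% to 5.50%. The ratio of MT-CO3 to MT-ND1 counts was 2.22 to 3.31 in WT and 1.18 to 1.55 in NS1.

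**Figure D2:**
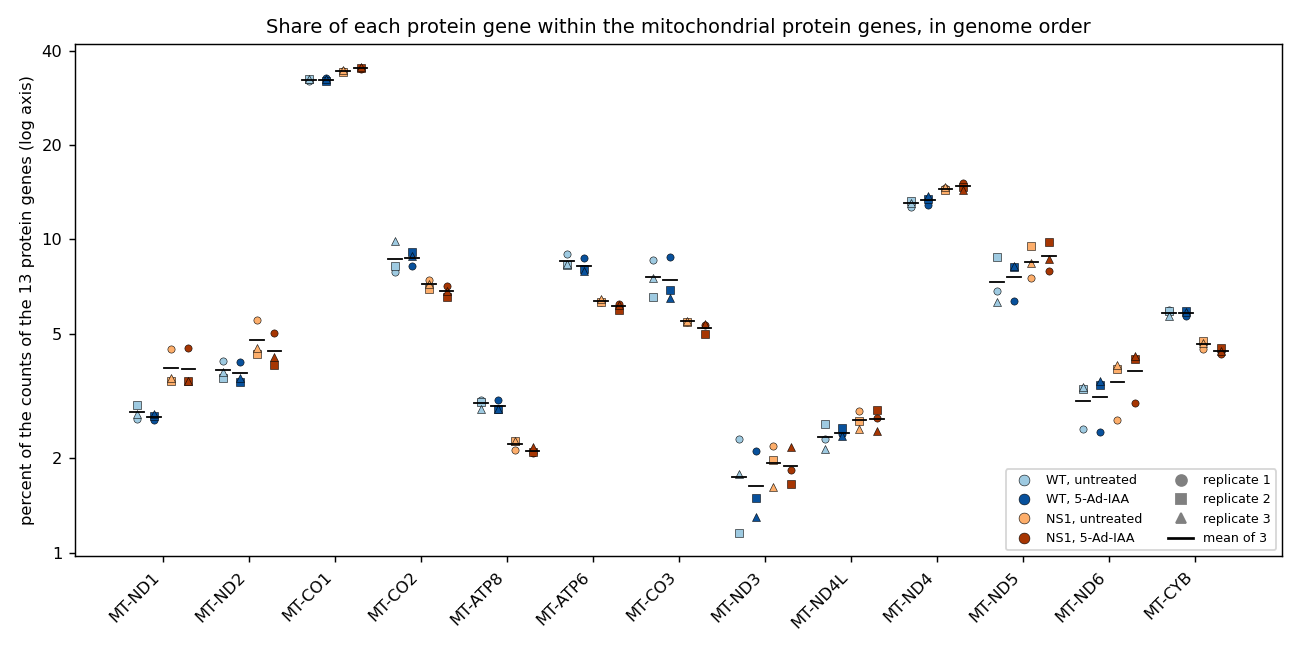
Share of each protein gene in the counts of all 13 (y axis, percent, log axis), genes in genome order (x axis), with 1 point per library, marker shape for the replicate number and a bar for the mean of 3. NS1 libraries lie below all WT libraries for MT-CO2, MT-ATP8, MT-ATP6, MT-CO3 and MT-CYB and above them for MT-ND1, MT-CO1 and MT-ND4.

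Levels per length differed among genes cut from the same precursor. As means over the 12 libraries, the protein genes ran from 424 normalised CPM per kilobase for MT-ND1 to 2764 for MT-CO1. MT-RNR2 stood at 1765 and MT-RNR1 at 290.2 CPM per kilobase after the poly(A) selection. The order of the protein genes changed between the lines, for MT-CYB and MT-ND5 among others. In untreated WT, MT-CYB averaged 855 ± 326 CPM per kilobase and MT-ND5 694 ± 353 (SD, n = 3), whereas in untreated NS1 MT-CYB averaged 337 ± 109 and MT-ND5 387 ± 121. Within libraries MT-CYB stood at 1.07 to 1.43 times the level of MT-ND5 in the 6 WT libraries. In the 6 NS1 libraries it stood at 0.724 to 0.941 times. The order of MT-CYB and MT-ND5 was thus the same in every library of a line. MT-CO1 was the highest protein gene in all 4 groups, at 3514 ± 1356, 3480.3 ± 1174, 1855 ± 593 and 2206 ± 250.4 CPM per kilobase in the order WT untreated, WT treated, NS1 untreated and NS1 treated.

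**Figure D3:**
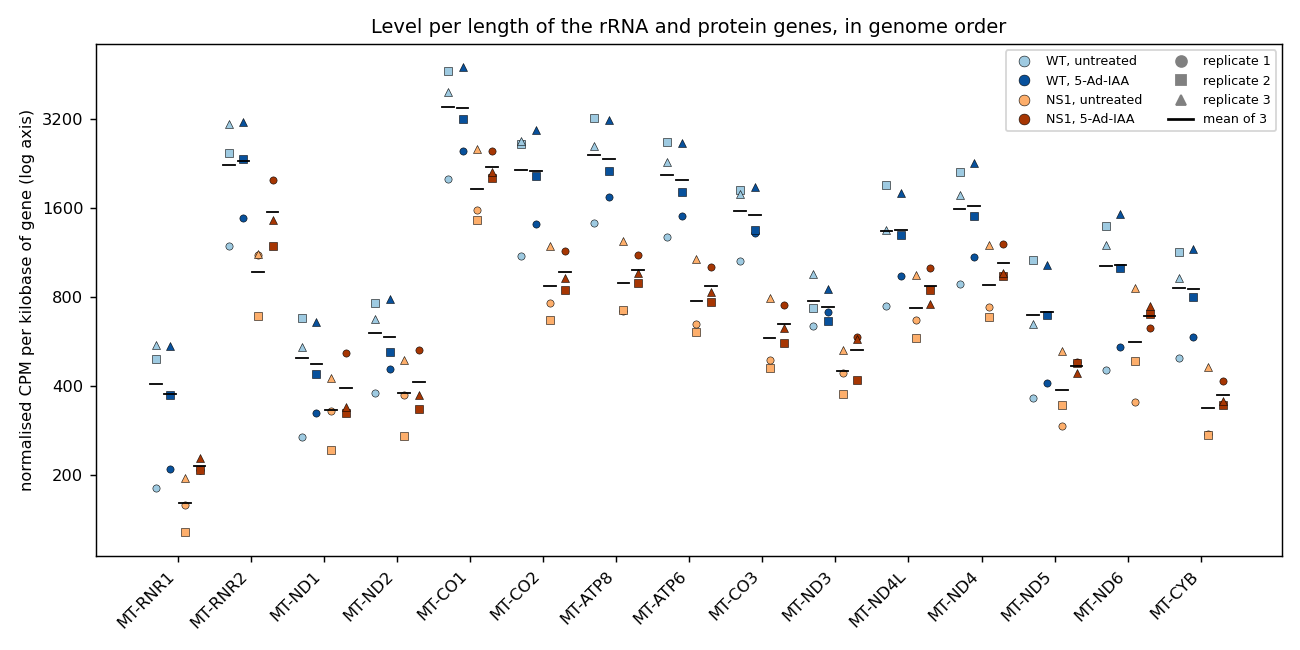
Normalised CPM per kilobase of gene (y axis, log axis) for the 2 rRNA and 13 protein genes in genome order (x axis), with 1 point per library, marker shape for the replicate number and a bar for the mean of 3. In WT the replicate 1 points (circles) lie low for nearly all genes, and MT-CO1 has the highest mean, 2764 over the 12 libraries.

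The tRNA genes were uneven. MT-TA, MT-TN, MT-TC and MT-TY averaged 92.7 to 129.6 normalised CPM over the 12 libraries, and the 18 other tRNA genes 0.556 (MT-TQ) to 26.7 (MT-TE). The 4 genes together held 59.3% to 78.1% of the tRNA-gene counts in untreated WT and 76.1% to 84.2% in untreated NS1. The counts of all 4 were divided by those of MT-ND2, a plus-strand protein gene on the other side of MT-TW. The ratios were 0.389 to 0.787 in untreated WT and 0.506 to 1.08 in treated WT. In NS1 they were 0.708 to 1.19 untreated and 1.21 to 1.61 treated.

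The inducer in NS1 called none of the 36 members in edgeR's quasi-likelihood test, where 6.15% of all genes passed. At an unadjusted p under 0.05 there were 4, MT-TA, MT-TN, MT-TC and MT-TY, all higher, where 20.8% of all genes passed that level, so the members' share was below it. DESeq2 called 4 at an adjusted p under 0.05, and 8.84% of all genes. MT-TN went from 139, 80.2 and 105 CPM to 214, 122 and 201, higher in 3 of 3 replicates but with overlap between the groups. Its log2 fold change was 0.73 ± 0.22 (adjusted p = 0.067, edgeR). MT-TC went from 122, 71.5 and 99.8 CPM to 192, 117 and 166, a log2 fold change of 0.70 ± 0.20 (adjusted p = 0.059, edgeR). MT-TA and MT-TY were at 0.74 ± 0.23 and 0.67 ± 0.21 (adjusted p = 0.078 and 0.074, edgeR). Leaving out the replicate 1 libraries gave 4 calls, and 11.4% of all genes. Leaving out untreated NS1 replicate 1 or treated NS1 replicate 2 gave 3 each (MT-TA, MT-TN and MT-TC), where 3.22% and 3.03% of all genes passed.

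A fit with the replicate number as a block called these 4 genes, 13.6% of all genes passing. The correlations between libraries set replicate 1 apart but did not show that replicates 2 and 3 pair by number. The adjusted p was 0.0083 for MT-TA, 0.0083 for MT-TN, 0.0047 for MT-TC and 0.023 for MT-TY (edgeR). With a separate block in each line, 7 members were called, all higher, and 25.9% of all genes. They were the same 4 with MT-RNR1, MT-RNR2 and MT-TS1 (adjusted p = 0.0080, 0.00020 and 0.038, edgeR). Over the 25 alternatives run, adjusted p ranged from 9.8e-06 to 0.526 for MT-TA, 1.44e-05 to 0.509 for MT-TN, 3.24e-05 to 0.444 for MT-TC and 9.53e-05 to 0.433 for MT-TY. For MT-RNR1, MT-RNR2 and MT-TS1 it ranged up to 0.90, 0.68 and 0.802, and 1, 2 and 2 of the alternatives called them. MT-RNR2 stood at 1733, 1075 and 1744 CPM without and 3098, 1849.6 and 2272 with the inducer in NS1, with log2 ratios within replicates of 0.84, 0.78 and 0.38. MT-RNR1 had ratios of 0.39, 0.70 and 0.22. These rRNA genes were the 2 members whose treated and untreated NS1 groups did not overlap, 5.56% against 13.2% of all genes that were higher without overlap.

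The 13 protein genes did not pass in NS1 in any of these fits, with log2 fold changes of 0.13 to 0.29. In 12 of the 13 the replicates had both directions, and MT-ND3 was higher in 3 of 3. For MT-CO1 the log2 ratios within replicates were 0.67, 0.46 and -0.26, and for MT-CYB 0.60, 0.34 and -0.38.

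In WT the inducer called no member and no gene of all 17775 in edgeR (0% of all genes), and DESeq2 called no member. At an unadjusted p under 0.05 there were 2 members, MT-TI lower and MT-TC higher, against 0.529% of all genes. The protein genes had log2 fold changes of -0.07 to 0.03. MT-TA, MT-TN, MT-TC and MT-TY were at 0.46 ± 0.23, 0.44 ± 0.22, 0.48 ± 0.20 and 0.40 ± 0.21. They were the 4 members without overlap between treated and untreated WT, all higher, which is 11.1% of the members. Among all genes, 1.68% were higher without overlap, a share that leaves out genes lower without overlap. These 4 tRNA genes lie side by side on the minus strand and had similar log2 fold changes. They therefore cannot be counted as 4 independent members in setting these shares side by side. MT-TC went from 83.7, 79.2 and 97.0 CPM to 140.0, 109 and 114, higher in 3 of 3 replicates, and MT-TN from 94.5, 88.5 and 112 to 152, 123 and 125.

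The difference between the inducer effects in NS1 and in WT was tested as an interaction. It called no member, none at an unadjusted p under 0.05, none in DESeq2, and 0.0225% of all genes in edgeR. For MT-TA the interaction was 0.28 ± 0.33 (adjusted p = 0.83, edgeR), so the 4 tRNA genes were not shown to respond differently in the lines. With a block in each line, where 14.0% of all genes passed, MT-RNR1 and MT-RNR2 were called, at 0.50 ± 0.15 and 0.58 ± 0.14 (adjusted p = 0.040 and 0.013, edgeR).

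Other RNAs that normally lack a poly(A) tail were measured beside these. The 32 of 65 replication-dependent histone genes tested had a median log2 fold change of 0.67 with the inducer in NS1, 4 of them called higher, and 0.06 in WT with none called. Among all genes, 6.15% passed for the inducer in NS1. The 5 of 6 other such RNAs tested, among them RN7SK and RMRP, had medians of 0.32 in NS1 and -0.27 in WT, with none called. In NS1 against WT, the histone genes had medians of 0.37 untreated, with none called, and 0.86 with the inducer, with 11 called higher. Among all genes, 12.5% and 28.2% passed in these comparisons. The other such RNAs had medians of -0.32 and 0.36, with none called. The part of poly(A) selection in the rRNA and tRNA values was not tested.

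**Figure D4:**
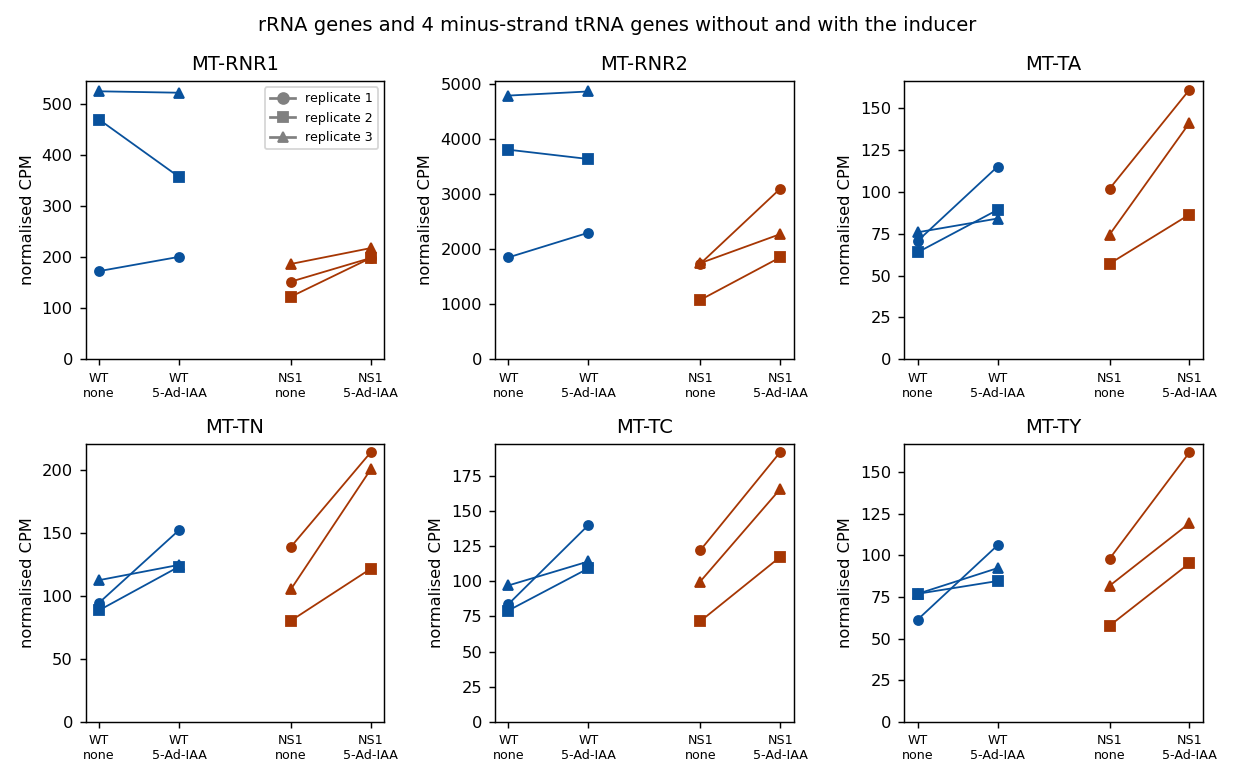
Normalised CPM (y axis) of MT-RNR1, MT-RNR2, MT-TA, MT-TN, MT-TC and MT-TY without and with 5-Ad-IAA in WT (blue) and NS1 (brown), with a line joining libraries of the same replicate number. All 3 lines go up in NS1 in each panel, and in WT all 3 go up for the 4 tRNA genes but not for the rRNA genes.

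Parts of the mitochondrial genome also exist as a copy in the nuclear genome, on chromosome 1 (hg38). The gene table lists 7 pieces there, MTND1P23, MTND2P28, MTCO1P12, MTCO2P12, MTATP8P1, MTATP6P1 and MTCO3P12. They match their mitochondrial genes at 97.6% to 98.7% of aligned bases. MT-CO3 and MTCO3P12 are shown around their first mismatch, A48G, counted from 1 at the start of MT-CO3, in capitals.
MT-CO3 (chrM:9224-9283): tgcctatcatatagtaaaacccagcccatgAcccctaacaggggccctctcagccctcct
MTCO3P12 (chr1:634393-634452): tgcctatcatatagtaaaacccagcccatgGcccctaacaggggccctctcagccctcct
The share of windows of 75 bases identical in gene and copy ran from 0% for MT-ATP8 to 36.6% for MT-CO1, and that of 36 bases from 22.7% to 58.7% for the same genes.

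The 7 copies held 23.6% to 24.6% of the summed counts of each library's 7 pairs. Within a pair the share was nearly constant, at 27.9% to 28.5% for MTCO1P12, 26.3% to 27.8% for MTATP6P1 and 11.2% to 12.7% for MTATP8P1. The copies also moved with their genes between the lines. Untreated, MTCO3P12 was at -1.44 and MT-CO3 at -1.43, and MTATP6P1 at -1.44 and MT-ATP6 at -1.42. Counts of these 7 genes are uncertain in level, since how reads matching both places were counted is not given in the sources used here. After the copies' counts were added to their genes, the calls stayed at 10 genes untreated, 6 with the inducer and 0 in the other comparisons.

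Nuclear genes that work with the mitochondrial genome were set beside the members. The calls in each list below stand against these shares of all genes. Untreated, 12.5% passed (7.05% lower), and with the inducer in both lines 28.2% passed (14.5% lower). For the inducer in NS1 6.15% passed. Of 85 nuclear subunits of the respiratory chain and ATP synthase, 79 were tested, and untreated NS1 had 2 higher and 5 lower, with a median log2 fold change of -0.01. With the inducer in both lines there were 5 higher and 10 lower and a median of -0.07. ATP5F1A, the catalytic-head alpha subunit of complex V, was higher at 0.56 ± 0.11, and NDUFA6 of complex I lower at -0.43 ± 0.11 (adjusted p = 0.0068 and 0.019, edgeR, untreated). The inducer in NS1 called none of the 79, with a median of 0.00.

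Of 78 mitochondrial ribosomal protein genes, all tested, untreated NS1 had none higher and 3 lower, with a median of -0.05. With the inducer in both lines there were none higher and 21 lower, a median of -0.23, against 14.5% of all genes lower. MRPL17 was at -0.83 ± 0.16 and MRPS33 at -0.76 ± 0.14 (adjusted p = 0.0021 and 0.0019, edgeR). The inducer in NS1 called 1 lower, MRPL15, at -0.41 ± 0.10 (adjusted p = 0.032, edgeR).

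Of 9 mitochondrial transcription genes, 1 was higher in untreated NS1. This was TFAM, which packages mitochondrial DNA and starts its transcription, at 61.8 ± 3.95 CPM in untreated WT and 96.2 ± 13.1 in untreated NS1 (SD, n = 3). Its log2 fold change was 0.64 ± 0.11 (adjusted p = 0.0035, edgeR), opposite in sign to the median of the members. With the inducer TFAM fell in NS1 by 0.44 ± 0.11 on the log2 scale (adjusted p = 0.036, edgeR), to 70.9 ± 4.64 CPM. With the inducer in both lines 1 of the 9 was lower, TFB1M, an rRNA methyltransferase, at -0.55 ± 0.12 (adjusted p = 0.0050, edgeR).

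Of 10 genes of mitochondrial DNA replication and maintenance, 2 were higher in untreated NS1, the helicase gene TWNK at 0.46 ± 0.13 and RNASEH1 at 0.49 ± 0.10 (adjusted p = 0.041 and 0.0072, edgeR). The inducer in NS1 lowered 2, the nuclease gene MGME1 at -0.66 ± 0.14 and PRIMPOL at -0.67 ± 0.17 (adjusted p = 0.016 and 0.034, edgeR). Treated NS1 against treated WT had 3 lower, these 2 and SSBP1. Of 18 genes of mitochondrial RNA processing and stability, 2 were lower untreated and 3 with the inducer, and none was higher. Among all genes, 7.05% and 14.5% were lower in these comparisons. FASTK and TBRG4, from a family of mitochondrial RNA-binding proteins, were lower in both, with TBRG4 at -0.49 ± 0.10 untreated and -0.79 ± 0.10 treated (adjusted p = 0.0089 and 0.00017, edgeR). The third was ELAC2, which cuts the 3′ ends of tRNAs. Of 7 regulators of mitochondrial biogenesis, 6 were tested. The coactivator gene PPARGC1B was higher in untreated NS1, at 1.01 ± 0.29 (adjusted p = 0.040, edgeR). With the inducer in both lines, the transcription factor genes NRF1 and ESRRA were lower in NS1, at -0.61 ± 0.13 and -0.45 ± 0.11 (adjusted p = 0.0047 and 0.0088, edgeR).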

How the data were processed

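The deposited table holds whole-number counts per gene for 12 poly(A)-selected libraries, unnormalised. Per the submitters' processing notes, reads were handled with STAR 2.7.3a and featureCounts 1.6.4 on hg38; the annotation release, the strand setting and the treatment of multiply mapped reads are not given in the sources used here. Symbols were matched by gene identifier for 60306 identifiers. Members, lists and tests were chosen with earlier results of these data known. All genes passing filterByExpr (17775) were tested with edgeR 4.0.16 in R 4.3.3: TMM scaling, glmQLFit with 1 mean per group over 12 libraries, glmQLFTest, two-sided, Benjamini-Hochberg over all genes tested, called at an adjusted p under 0.05. SE is the log2 fold change divided by the square root of F. DESeq2 1.42.0, other scalings, filters, replicate blocks, leave-outs and, added after seeing the data, summed nuclear copies were alternatives. Every MT- gene could be named; of each nuclear list, up to 4 called genes with the lowest adjusted p in a comparison could be named. Same-numbered libraries deviated together in the inducer comparisons (r of 0.44 to 0.75 in NS1 and 0.26 to 0.78 in WT), so the numbers from the titles were taken as pairs there. Libraries 2 and 3 of unlike number also deviated together (r of 0.40 and 0.3 in NS1 and 0.41 and 0.26 in WT). The correlations thus set replicate 1 apart and did not show that replicates 2 and 3 pair by number. The scripts were tested on simulated data. One of the listed marker genes is not reported here. No pair of replicates agreed within sampling noise. Total counts of 10593934 to 20266996 per library set the precision; the lowest tRNA genes have few counts.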

Additional observations from a re-analysis of the deposited data

Results flagged for a closer look

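The inducer effect on the 2 rRNA genes differed between NS1 and WT in a fit with a replicate block in each line. The interaction was 0.50 on the log2 scale for MT-RNR1 (adjusted p = 0.040, edgeR) and 0.58 for MT-RNR2 (adjusted p = 0.013, edgeR). Both genes were higher with the inducer in 3 of 3 replicates of NS1, and in WT their log2 ratios within replicates had both signs. Without the block the interactions were 0.53 ± 0.51 and 0.62 ± 0.48 (adjusted p = 0.78 and 0.70, edgeR). In the fit with the block, 14% of all genes passed, and these 2 were the only ones called of the 36 members tested. The members' share was thus below that of all genes. That block was 1 of 24 alternatives run, and in the other 23 neither interaction was called, with adjusted p up to 1.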

How the results depend on the processing

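For the inducer in NS1, against 0 genes called, there were 6 with no low-count filter, 4 with the replicate block, 7 with the replicate block within each line, 4 in DESeq2 and 0 to 4 when replicates or single libraries were left out. For untreated NS1 against WT (10 called), there were 25 with no low-count filter, 16 with the replicate block and 0 to 28 in leave-outs. For treated NS1 against WT (6 called), there were 22 with no low-count filter (18 lower, and MT-TA, MT-TN, MT-TC and MT-TY higher), where 16.1% of all genes passed. There were 8 with the replicate block (7 lower and MT-TC higher) and 1 to 20 in leave-outs. Shares of all genes are not given for the other fits with no low-count filter or for the replicate block between the lines. Those counts thus cannot be set against all genes. The interaction had 2 with the replicate block within each line and 0 otherwise. Numbers did not pair the libraries between the lines (r of 0.08 to 0.21 untreated and -0.00 to 0.15 treated). In untreated NS1 against WT, the log2 fold changes of the 4 tRNA genes changed sign among the leave-outs, ranging from -0.10 to 0.34 for MT-TA, -0.12 to 0.32 for MT-TN, -0.042 to 0.36 for MT-TC and -0.15 to 0.39 for MT-TY, below 0 without replicate 1 and without NS1 untreated replicate 1. The cause was not tested. Group means of the percent of counts in protein, rRNA and tRNA genes moved by less than 1 SD. Leaving a single library out of so small a group cannot move its mean by a whole SD. That outcome was therefore fixed beforehand and does not show that the means are stable. Single untreated WT libraries held 1.01% to 2.26% of their counts in protein genes. The tRNA genes under 5 CPM rest on few counts per library, which limits their precision.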
